A study of Mus musculus with 8 samples.

Results

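The genes described here write, read and erase marks on chromatin or move nucleosomes along it. They were chosen as a list of 50 names, which stand for 49 genes because *Baf60c* is an older name of *Smarcd3*. They are lysine acetyltransferases and their coactivators, corepressor scaffolds, Polycomb proteins, histone methyltransferases and demethylases, the enzymes of DNA methylation and its removal, subunits of SWI/SNF and CHD remodelers, and an acetyl-lysine reader. Every probe whose accession maps to one of these genes was kept. Probes were matched for 48 of the 49 genes, 84 of the 41174 probes on the array, and no probe was matched for *Kmt2a*. Of the 84 probes, 76 passed the filter on dim signal, with 4 or more arrays well above background, and were tested, and every one of the 48 genes had at least 1 tested probe.

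Whole hearts of mouse embryos at E18.5 were compared between 4 wild-type (WT) embryos and 4 with SIRT1 deleted in the germ line (SIRT1 KO), all on the C57BL/6 background, from dams kept on chow with no treatment. The knockout was made in every cell of the embryo and not in the heart alone, and hearts of both sexes were used. Total RNA was labeled with Cy3 and hybridized to one-color Agilent whole mouse genome arrays. The question was whether the transcriptome of the heart differs when SIRT1 is lost.

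SIRT1 is an NAD+-dependent deacetylase, which removes acetyl groups from histone tails and from transcription factors and their cofactors. Acetyltransferases such as EP300 and CREBBP add the same mark at enhancers and promoters, where bromodomain proteins such as BRD2 read it. Polycomb complexes, DNA methyltransferases and H3K9 methyltransferases hold genes silent, while demethylases, TET enzymes and remodelers open or re-pattern them, and many of these proteins are needed for a heart to form.

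Levels are given as log2 signal, the log2 of a probe's intensity minus the 75th percentile of its array, so that a probe at 0 is as bright as that percentile. A level is compared between hearts on the same probe and never between probes. Fold changes are on the same log2 scale, arrays labelled SIRT1 KO minus arrays labelled WT, and adjusted p-values are from limma with Benjamini-Hochberg adjustment over all 25624 probes tested. Where a gene has several tested probes, the one with the highest mean signal, here called its brightest probe, stands for the gene.

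Each array had at least 59.5% of its probes well above background, no spot was saturated, and all 18 cardiomyocyte markers were measured. The WT arrays lie on 1 slide and those labelled SIRT1 KO on the other, scanned on different days, and hence genotype, slide and scan day cannot be told apart. *Sirt1* itself did not pass as lower on either of its probes (log2 fold change 0.54, limma adjusted p = 0.0323, on A_52_P358612 and -0.11, limma adjusted p = 0.589, on A_51_P141152), so genotypes are those of the labels. SIRT1 KO replicate 2 had *Xist* at a log2 signal of 4.02 and its Y-linked genes between -7.79 and -5.43, whereas SIRT1 KO replicate 3 had *Xist* at -3.26 with Y-linked genes present. The other 6 arrays had *Xist* between -7.78 and -7.46. In whole hearts, fewer cells of a type and less RNA per cell cannot be told apart.

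None of the 48 chromatin genes differed between the genotypes past the threshold. No brightest probe reached an adjusted p of 0.05 by limma, against 4.62% of the brightest probes of all 13600 named genes, and 0 of the 76 tested probes did, against 4.91% of all probes. At an unadjusted p under 0.05 stood 12 of the 76 probes by limma (15.8%, against 21.5% of all probes) and 10 by the methods' analysis of variance, which also passed 0 after adjustment. Of these 12, 11 were higher in the hearts labelled SIRT1 KO (14.5% of the probes, against 13.4% of all probes in that direction) and 1, of *Kat2b*, was lower. For 9 probes (11.8%) the 4 values of one genotype lay wholly beyond the 4 of the other, against 13.7% of all probes, and all 9 were higher in the hearts labelled SIRT1 KO, against 8.63% of all probes in that direction. Counted by gene on the brightest probe, 8 of 48 had an unadjusted p under 0.05 (16.7%, against 20.4% of named genes) and 6 did not overlap (12.5%, against 13.9%), all 6 higher, against 8.38% of named genes in that direction. Counted in both directions the shares of the chromatin genes lay below those of the array. The shares that were higher with an unadjusted p under 0.05 or with no overlap lay a little above, on few probes. Neither difference was tested. The direction of these counts depends on the scaling: with no scaling, 7 of the 76 probes passed the threshold and all 7 were lower. Of all probes, 24.8% passed with no scaling.

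The sizes were small and their intervals narrow. The log2 fold change on the brightest probe ranged from -0.24 for *Kat6a* to 0.47 for *Cbx7*, and the median standard error (SE) was 0.10. The 95% confidence interval (CI) lay within a 2-fold change in either direction for 47 of the 48 genes, the exception being *Cbx7* with an upper bound of 1.01, and within a 1.5-fold change for 45. The median over the 48 genes was 0.09, with 36 genes higher and 12 lower. Of all named genes on the brightest probe 48.4% were higher, with a median of -0.01. The median of all probes tested, which include dimmer and unnamed ones, was 0.01. The count of higher genes depends on the scaling constant, which moves all probes of an array by the same amount. When each array was centred on its median instead, 18 of the 48 were higher and their median was -0.05, with all probes at -0.12, and with no scaling 8 were higher and their median was -0.13, with all probes at -0.21. The median of the chromatin genes lay above that of all probes in each of these scalings. These scalings shift all fold changes alike, so this order could not change and is no added support.

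**Figure D1:**
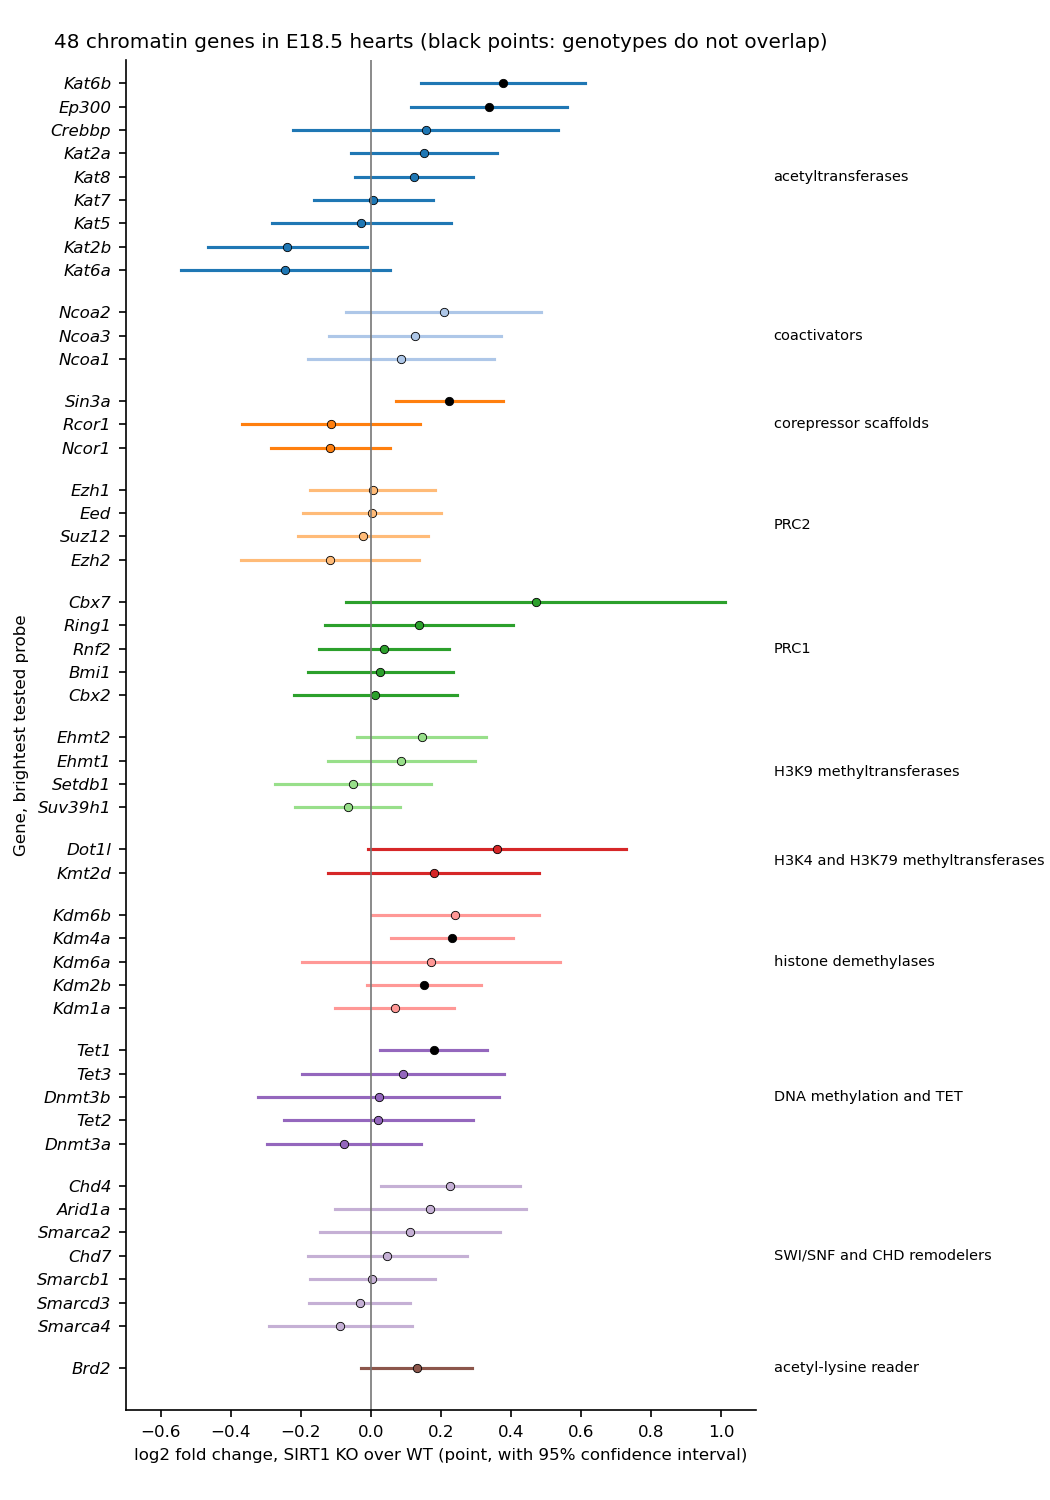
Log2 fold change of each of the 48 chromatin genes on its brightest tested probe (x axis, SIRT1 KO over WT) with its 95% confidence interval as a bar, grouped by role, with genes on the y axis. Black points mark the 6 genes whose genotypes do not overlap, and the points run from -0.24 (*Kat6a*) to 0.47 (*Cbx7*) with most intervals crossing 0.

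The hearts differed among themselves as much as the genotypes did. Taking for each array the median over the 48 genes of the log2 signal minus the WT mean of the probe, the WT arrays gave -0.02, -0.04, 0.00 and 0.07 in replicates 1 to 4 and those labelled SIRT1 KO 0.08, 0.09, -0.01 and 0.11. WT replicate 4 thus stood beside SIRT1 KO replicates 1, 2 and 4, and SIRT1 KO replicate 3 beside WT replicates 1, 2 and 3. In WT replicate 4 the signal was above the WT mean for 36 of the 48 genes, as many as in SIRT1 KO replicate 4, and in SIRT1 KO replicate 3 for 23. The same median over all probes tested stayed between -0.01 and 0.02 on every array.

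Marker sums were set against the arrays only for the proliferation, liver, erythroid, cardiomyocyte and endothelial lists. Of these, the sum of the proliferation genes divided the arrays in the same way. The summed signal of 19 proliferation genes, in units of the array's 75th percentile, was 224 in WT replicate 4 and 232, 241 and 257 in SIRT1 KO replicates 4, 1 and 2, against 271, 290 and 295 in WT replicates 1, 2 and 3 and 300.4 in SIRT1 KO replicate 3, so that the 4 arrays with the lowest sums were the 4 with the highest medians of the chromatin genes. All 19 proliferation genes were lower in the hearts labelled SIRT1 KO, with a median log2 fold change of -0.18 and none past the threshold. The summed signal of 9 liver genes was 118 and 62.0 in SIRT1 KO replicates 1 and 4 and between 11.3 and 27.6 on the other 6 arrays, the highest of these being WT replicate 4. The 13 erythroid genes summed to between 222 and 263 in the WT hearts and between 177 and 218 in those labelled SIRT1 KO, with *Gata1* and *Hbb-y* past the threshold as higher. The 18 cardiomyocyte genes summed to between 2215 and 2394 in the WT hearts and between 2330 and 2692 in those labelled SIRT1 KO, and 12 endothelial genes to between 73.1 and 86.7 and between 66.5 and 80.5. The liver, erythroid, cardiomyocyte and endothelial sums did not divide the arrays as the chromatin genes did. The part of these differences in the signal of the chromatin genes was not tested.

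**Figure D2:**
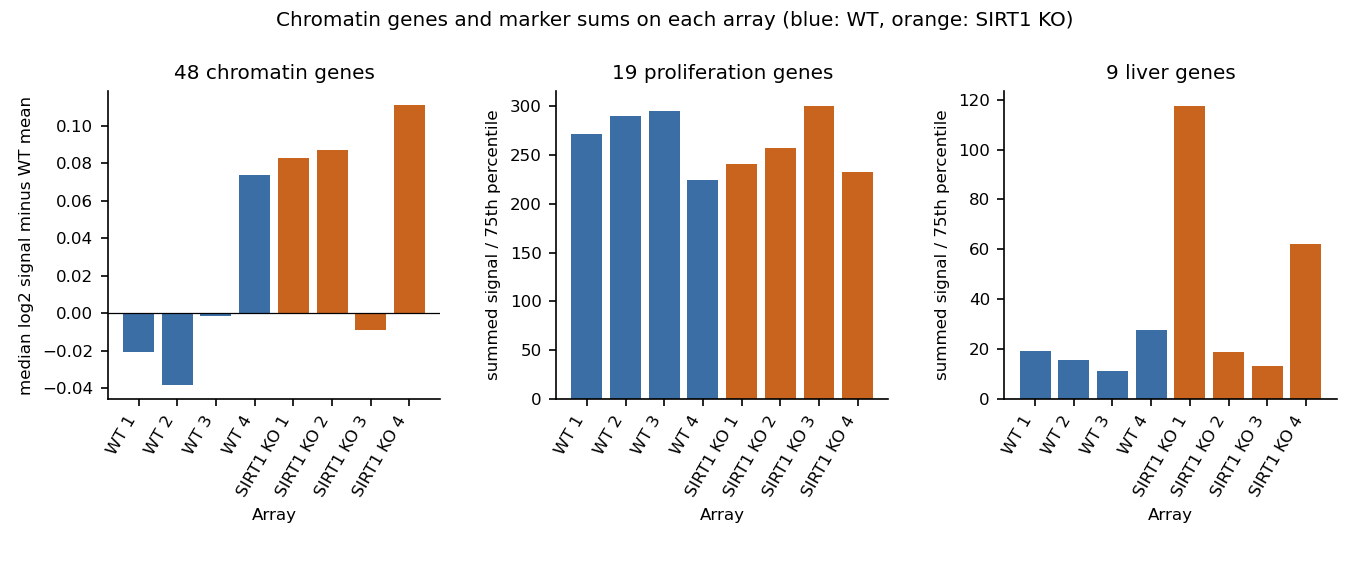
Per array (x axis), the median log2 signal of the 48 chromatin genes minus the WT mean of each probe (left), and the summed signal of 19 proliferation genes (middle) and 9 liver genes (right) in units of the array's 75th percentile; blue bars are WT and orange bars SIRT1 KO. WT replicate 4 at 0.07 stands with SIRT1 KO replicates 1, 2 and 4, and SIRT1 KO replicate 3 at -0.01 with the other WT arrays.

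Among the acetyltransferases, the enzymes that oppose SIRT1, 6 of 9 genes were higher and 3 lower, with a median of 0.12 and none past the threshold, while 4 of 9 were higher with median scaling, 2 with no scaling and 8 with the normexp background correction. *Ep300* encodes the enhancer acetyltransferase p300. On its brighter probe (A_52_P411601) the log2 signal was -1.85, -1.67, -1.62 and -1.69 on the WT arrays and -1.27, -1.42, -1.57 and -1.21 on those labelled SIRT1 KO. The lowest of the latter, in SIRT1 KO replicate 3, was only just above the highest WT value. The log2 fold change was 0.34 (SE 0.10, 95% CI 0.12 to 0.56, limma adjusted p = 0.0905), and the exact two-sided permutation test gave p = 0.0286, the smallest that 4 against 4 allow. Its dimmer probe gave 0.38 with overlapping genotypes. Without SIRT1 KO replicate 3 the brighter probe passed the threshold, with 0.41 (limma adjusted p = 0.0390), and it was 0.21 with median scaling and 0.12 with no scaling (limma adjusted p = 0.185 and 0.501).

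*Kat6b* encodes MORF, an acetyltransferase of histone H3, and had the smallest p-value of any brightest probe. Its 1 tested probe (A_51_P176459) read -0.69, -0.70, -0.45 and -0.42 on the WT arrays and -0.22, -0.22, -0.32 and 0.02 on those labelled SIRT1 KO. The genotypes did not overlap, and SIRT1 KO replicate 4 stood highest. The log2 fold change was 0.38 (SE 0.10, 95% CI 0.14 to 0.61, limma adjusted p = 0.0762). With the normexp background correction it passed, with 0.34 (limma adjusted p = 0.0351), and it was 0.24 with median scaling and 0.16 with no scaling (limma adjusted p = 0.150 and 0.321). Its paralog *Kat6a*, which encodes MOZ, stood at -0.24 (limma adjusted p = 0.322), the lowest value of the 48 genes, on a dim probe (mean log2 signal -4.50) that turned to 0.03 with the normexp background correction and passed as lower with no scaling (-0.46, limma adjusted p = 0.0370).

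*Kat2b* (PCAF), a subunit of coactivator complexes that acetylates histone H3, was read in opposite directions by its probes. The brighter probe (A_51_P257762) was at 1.08, 1.28, 1.36 and 1.17 on the WT arrays and at 0.82, 0.93, 1.19 and 0.99 on those labelled SIRT1 KO. Its groups overlapped through SIRT1 KO replicate 3, and its log2 fold change was -0.24 (SE 0.10, limma adjusted p = 0.211). It was -0.37 with median scaling (limma adjusted p = 0.0693) and passed as lower with no scaling (-0.46, limma adjusted p = 0.0169). The dimmer probe (A_52_P87955) gave 0.29 (limma adjusted p = 0.473), a value carried by SIRT1 KO replicate 2 at 0.32 while the other 3 arrays labelled SIRT1 KO lay between -0.77 and -0.39 and the WT arrays between -0.78 and -0.52. Which part of the transcript each probe reads was not analysed here.

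The other acetyltransferases did not pass the threshold. *Crebbp*, the paralog of *Ep300*, had 0.16 and 0.25 on its probes, *Kat2a* (GCN5) 0.15, *Kat8* (MOF) 0.12, *Kat7* (HBO1) 0.01 and *Kat5* (TIP60) -0.03, with adjusted p-values from 0.344 to 0.968 from limma. The brightest *Crebbp* probe moved with single arrays, to 0.02 without SIRT1 KO replicate 4 and 0.29 without SIRT1 KO replicate 3. The p160 coactivators, which bring EP300 to nuclear receptors, were all higher on the brightest probe, and 1 of 3 with median scaling and 0 with no scaling. *Ncoa2* had 0.21 (limma adjusted p = 0.364), *Ncoa3* 0.13 and *Ncoa1* 0.08. *Ncoa2* (A_52_P335636) read -2.00, -1.94, -1.79 and -1.58 on the WT arrays and -1.53, -1.65, -1.87 and -1.44 on those labelled SIRT1 KO, with the lowest of the latter, in replicate 3, within the WT range. The dimmest *Ncoa3* probe had 0.45 (limma adjusted p = 0.163) and another -0.01.

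Of the corepressor scaffolds, which hold histone deacetylases at repressed genes, *Sin3a* was higher and *Ncor1* and *Rcor1* were lower on the brightest probe under every scaling run. *Sin3a* (A_51_P159415) read 0.79, 0.84, 0.70 and 0.84 on the WT arrays and 1.02, 0.96, 1.06 and 1.03 on those labelled SIRT1 KO, 2 tight groups with no overlap. Its log2 fold change was 0.22 (SE 0.07, 95% CI 0.07 to 0.38, limma adjusted p = 0.0984), and the methods' analysis of variance gave it the smallest adjusted p of the 76 probes, 0.0504. With no scaling its log2 fold change was 0.00. *Ncor1* had -0.12 on its brightest probe and between -0.14 and 0.07 over 4 probes, and *Rcor1*, the scaffold that carries KDM1A, had -0.11 (limma adjusted p = 0.403 and 0.594).

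**Figure D3:**
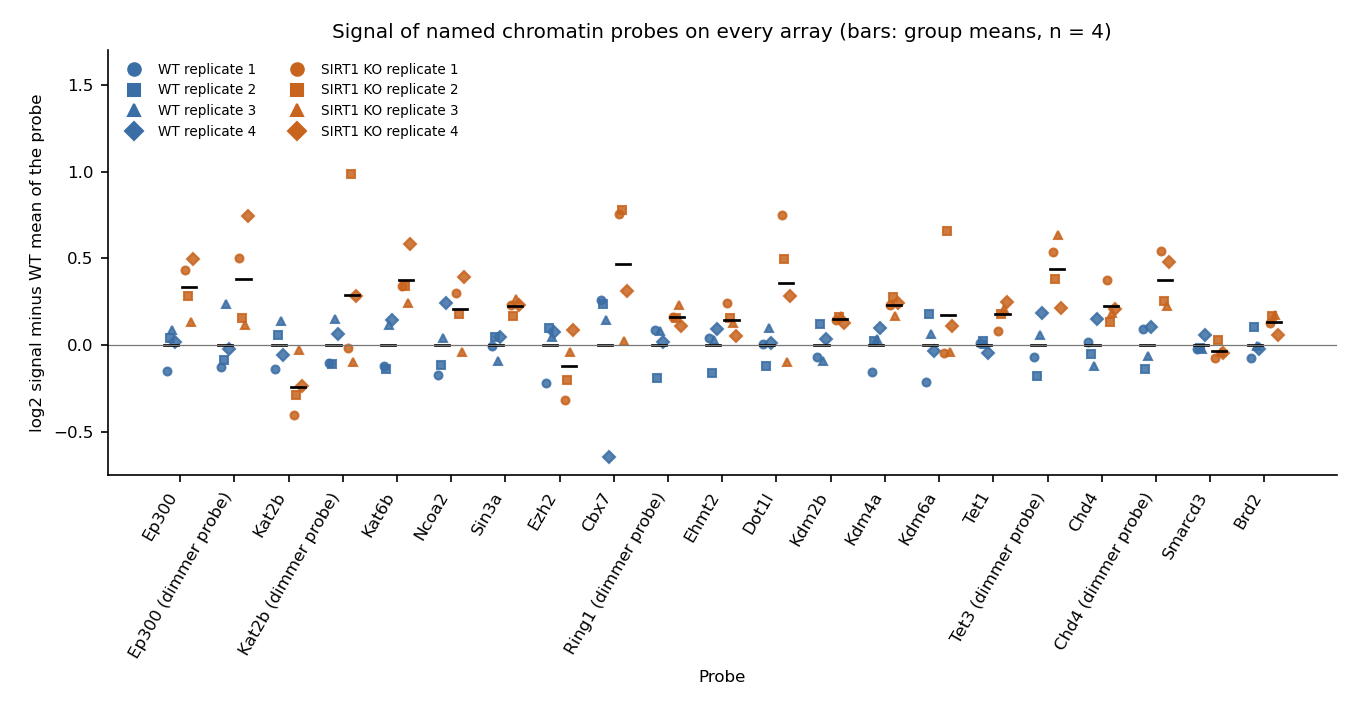
Log2 signal of the named chromatin probes (x axis) on every array as the difference from the probe's WT mean (y axis), with WT in blue, SIRT1 KO in orange, a symbol for each replicate and a black bar at each group mean (n = 4). *Sin3a*, *Kdm4a* and *Kdm2b* show groups that do not overlap, those of *Kdm2b* nearly touching, and single arrays stand far out for *Cbx7* (WT replicate 4) and *Kdm6a* (SIRT1 KO replicate 2).

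RefSeq promoters of GRCm38.p6 are shown for *Ep300*, *Kat6b*, *Sin3a* and *Kdm4a*, of the 6 genes whose genotypes did not overlap on the brightest probe those with the smallest p-values, to let their promoter make-up be set beside their values. Each runs 5′ to 3′ on the strand of the gene, 250 bases before to 50 bases after the start, with capitals at each GC box (GGGCGG or its reverse complement CCGCCC). They lie at chr15:81585964-81586263 (plus strand), chr14:21499520-21499819 (plus), chr9:57076126-57076425 (plus) and chr4:118179994-118180293 (minus).
Ep300: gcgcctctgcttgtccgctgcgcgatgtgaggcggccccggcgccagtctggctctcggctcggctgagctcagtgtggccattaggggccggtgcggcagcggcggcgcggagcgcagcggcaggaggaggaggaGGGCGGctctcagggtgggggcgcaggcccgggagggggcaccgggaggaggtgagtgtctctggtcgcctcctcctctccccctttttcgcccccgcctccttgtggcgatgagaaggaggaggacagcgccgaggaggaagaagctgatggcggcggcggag
Kat6b: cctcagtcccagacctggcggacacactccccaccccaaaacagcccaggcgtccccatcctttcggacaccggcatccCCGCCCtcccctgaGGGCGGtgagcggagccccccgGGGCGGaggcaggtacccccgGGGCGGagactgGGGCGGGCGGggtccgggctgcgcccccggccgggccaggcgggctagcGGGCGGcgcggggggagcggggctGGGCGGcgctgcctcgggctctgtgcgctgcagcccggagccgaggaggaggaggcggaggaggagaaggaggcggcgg
Sin3a: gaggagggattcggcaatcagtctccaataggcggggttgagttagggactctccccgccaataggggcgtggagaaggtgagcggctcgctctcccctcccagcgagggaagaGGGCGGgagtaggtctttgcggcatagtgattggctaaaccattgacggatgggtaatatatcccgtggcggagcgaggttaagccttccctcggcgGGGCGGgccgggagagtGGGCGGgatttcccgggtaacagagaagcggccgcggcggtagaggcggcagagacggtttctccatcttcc
Kdm4a: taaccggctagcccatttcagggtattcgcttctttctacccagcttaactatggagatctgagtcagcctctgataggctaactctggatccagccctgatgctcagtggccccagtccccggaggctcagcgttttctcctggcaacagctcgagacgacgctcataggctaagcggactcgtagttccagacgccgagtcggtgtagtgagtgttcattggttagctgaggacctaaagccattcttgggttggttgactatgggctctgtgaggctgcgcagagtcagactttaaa
The windows differ in their number of GC boxes. *Kat6b* holds 8 GC boxes at 78.3% GC, *Sin3a* 3 at 62.3%, *Ep300* 1 at 72.3% and *Kdm4a* none at 53.3%, and *Kat6b* and *Sin3a* each have a second annotated start.

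Promoters of 43 of the 49 genes were matched, 60 windows in all. Their median GC content was 67.8%, against 60.3% for the 13807 windows of genes with a tested probe, and their median count of CpG was 29 against 19. A ratio of observed to expected CpG above 0.6, the usual mark of a CpG island, was found in 53 of 60 windows (88.3%), against 64.7%. The GC box was held on either strand by 47 of 60 (78.3%), against 60.2%, the ETS core CCGGAAG by 8 (13.3%), against 15.9%, and the E-box CACGTG by 6, against 9.55%. The TATA box TATAAA was held on either strand by 0 of 60 windows, against 8.05%. These are descriptions of the letters with no test, windows of one gene overlap in places, and a match is not a site in use.

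Polycomb genes did not pass the threshold in either complex. PRC2 places the H3K27 methyl mark, and of its genes 2 were higher and 2 lower, with a median of -0.01. All 4 were lower with median scaling and with no scaling, 1 was higher with quantile normalization and 3 were higher with the normexp background correction. *Ezh2*, its main enzyme in dividing cells, read 0.88, 1.20, 1.15 and 1.17 on the WT arrays and 0.78, 0.90, 1.06 and 1.19 on those labelled SIRT1 KO (A_51_P248067). Its groups overlapped widely, with a log2 fold change of -0.12 (SE 0.11, limma adjusted p = 0.578) that ranged from -0.19 without WT replicate 1 to -0.05 without SIRT1 KO replicate 1. It was -0.25 with median scaling (limma adjusted p = 0.185) and passed as lower with no scaling (-0.34, limma adjusted p = 0.0488), where all probes had a median of -0.21. *Suz12* had -0.02, and *Eed* and *Ezh1* were both 0.00, each with a 95% confidence interval within 0.21 of 0 on the log2 scale. All 5 genes of PRC1, which binds that mark and ubiquitinates histone H2A, were higher with a median of 0.04 and none past the threshold, but only 2 of 5 with median scaling and 1 of 5 with no scaling. *Rnf2* had 0.04, *Bmi1* 0.03 and *Cbx2* 0.01.

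*Cbx7*, a PRC1 subunit that reads the H3K27 methyl mark, had the largest log2 fold change of the 48 genes and the widest interval. Its 1 tested probe (A_52_P263774) was dim and read -3.87, -3.90, -3.99 and -4.78 on the WT arrays and -3.38, -3.35, -4.11 and -3.82 on those labelled SIRT1 KO. SIRT1 KO replicate 3 was below 3 of the WT arrays, and WT replicate 4 lay far below the rest. The log2 fold change was 0.47 (SE 0.24, 95% CI -0.07 to 1.01, limma adjusted p = 0.295), and without WT replicate 4 it was 0.25 (limma adjusted p = 0.497). *Ring1*, a ubiquitin ligase of PRC1, had 0.14 on its brightest probe and 0.16 on its dimmer one (A_52_P41728), where the WT arrays lay between -2.14 and -1.86 and those labelled SIRT1 KO between -1.84 and -1.72 with no overlap (limma adjusted p = 0.287).

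Of the H3K9 methyltransferases, *Ehmt2* (G9a) and its partner *Ehmt1* were higher, with 0.14 and 0.09, and *Setdb1* and *Suv39h1* lower, with -0.05 and -0.07, while 1 of these 4 was higher with median scaling and 0 with no scaling. *Ehmt2* (A_51_P343016) read 3.85, 3.65, 3.84 and 3.90 on the WT arrays and 4.05, 3.97, 3.94 and 3.87 on those labelled SIRT1 KO. The groups overlapped in 1 pair of arrays, WT replicate 4 and SIRT1 KO replicate 4 (limma adjusted p = 0.339). *Dot1l*, the H3K79 methyltransferase, read -0.20, -0.33, -0.10 and -0.19 on the WT arrays and 0.55, 0.29, -0.30 and 0.08 on those labelled SIRT1 KO (A_51_P256369). SIRT1 KO replicate 3 was as low as the lowest WT arrays and the other 3 were above all WT values. The log2 fold change was 0.36 (SE 0.16, 95% CI -0.01 to 0.73, limma adjusted p = 0.244), and without SIRT1 KO replicate 3 it was 0.51 and passed (limma adjusted p = 0.0431), whereas without SIRT1 KO replicate 1 it was 0.23 (limma adjusted p = 0.442). *Kmt2d*, an H3K4 methyltransferase of enhancers, had 0.18 (limma adjusted p = 0.473).

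All 5 histone demethylases were higher in the hearts labelled SIRT1 KO, with a median of 0.17 and none past the threshold, against 4 of 5 with median scaling and 2 of 5 with no scaling. *Kdm4a*, which removes methyl groups from H3K9 and H3K36, read 2.36, 2.54, 2.55 and 2.61 on the WT arrays and 2.74, 2.79, 2.69 and 2.76 on those labelled SIRT1 KO (A_52_P281209). No values overlapped, and the log2 fold change was 0.23 (SE 0.08, 95% CI 0.06 to 0.40, limma adjusted p = 0.130). Its dimmer probe had 0.19. *Kdm2b*, a demethylase that binds CpG islands and brings PRC1 to them, read -0.44 to -0.23 on the WT arrays and -0.22 to -0.19 on those labelled SIRT1 KO (A_52_P24648), a log2 fold change of 0.15 with no overlap (limma adjusted p = 0.267). There WT replicate 2 and SIRT1 KO replicate 4 were almost equal. With no scaling *Kdm4a* was at 0.01 and *Kdm2b* at -0.07, and *Kdm4a* was at 0.06 with the normexp background correction and 0.10 with median scaling. *Kdm6b*, an H3K27 demethylase, had 0.24 (limma adjusted p = 0.230), and *Kdm1a* (LSD1) had 0.07.

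*Kdm6a* (UTX), the X-linked H3K27 demethylase that escapes X inactivation in females, was set apart by 1 heart. Its probe (A_52_P551707) read -1.85, -1.45, -1.57 and -1.67 on the WT arrays and -1.68, -0.98, -1.67 and -1.52 on those labelled SIRT1 KO. SIRT1 KO replicate 2, the array with high *Xist*, was the highest of the 8, and the other 3 lay within the WT range. The log2 fold change was 0.17 (SE 0.16, limma adjusted p = 0.575), and 0.01 without SIRT1 KO replicate 2. *Kdm5c*, a further X-linked demethylase known to escape, was at 2.39 in the same heart and between 1.62 and 1.86 on the other 7 arrays.

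Among the genes of DNA methylation, *Dnmt3a* was lower on all 3 of its probes, between -0.08 and -0.01, and *Dnmt3b* was at 0.02. With the TET genes 4 of 5 were higher, but 2 of 5 with quantile normalization or cyclic loess, 1 with median scaling and 0 with no scaling. *Tet1*, which oxidizes methylated cytosine, read -1.99, -1.98, -2.00 and -2.06 on the WT arrays and -1.93, -1.83, -1.80 and -1.76 on those labelled SIRT1 KO (A_51_P512172). The WT values lay very close together and below all others, and the log2 fold change was 0.18 (SE 0.07, 95% CI 0.03 to 0.33, limma adjusted p = 0.170). *Tet3* had the smallest adjusted p of the 76 probes, on its dimmer probe (A_52_P491273). That probe read -5.01, -5.12, -4.89 and -4.76 on the WT arrays and -4.40, -4.56, -4.31 and -4.73 on those labelled SIRT1 KO, with a difference of 0.44 (limma adjusted p = 0.0669) and no overlap. WT replicate 4 and SIRT1 KO replicate 4 differed by only 0.02 there, and without the latter the probe passed, with 0.52 (limma adjusted p = 0.0406). With quantile normalization it was 0.24 (limma adjusted p = 0.306), with the normexp background correction 0.26 (0.0945) and with no scaling 0.22 (0.136). The brightest *Tet3* probe had 0.09 (limma adjusted p = 0.717), and *Tet2* had 0.02 and -0.27 on its probes.

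The remodelers held 5 genes that were higher and 2 that were lower, with a median of 0.05, while 2 of 7 were higher with median scaling and 1 with no scaling. *Chd4*, the ATPase of the NuRD complex, which joins remodeling to histone deacetylation, had 3 tested probes. The brightest (A_52_P298043) read 2.28, 2.21, 2.15 and 2.42 on the WT arrays and 2.64, 2.40, 2.45 and 2.47 on those labelled SIRT1 KO, with WT replicate 4 above SIRT1 KO replicate 2. Its log2 fold change was 0.23 (SE 0.09, limma adjusted p = 0.178). A dimmer probe (A_51_P454280) read -1.74 to -1.50 on the WT arrays and -1.38 to -1.06 on those labelled SIRT1 KO, with 0.38 and no overlap (limma adjusted p = 0.0713), and the other dimmer probe had -0.05. That dimmer probe passed with the replicate number as a block, a replicate block (adjusted p = 0.0439), with the normexp background correction (0.0307) and without SIRT1 KO replicate 3 (0.0483), all from limma. It was 0.24 with median scaling and 0.16 with no scaling (limma adjusted p = 0.152 and 0.350).

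No SWI/SNF gene passed the threshold. *Smarcd3* (BAF60c), a subunit found in heart and muscle complexes, read 2.76, 2.76, 2.76 and 2.83 on the WT arrays and 2.70, 2.81, 2.74 and 2.73 on those labelled SIRT1 KO (A_51_P423880). The groups overlapped, with a log2 fold change of -0.03 (SE 0.06, 95% CI -0.18 to 0.11, limma adjusted p = 0.810). *Smarca4* (BRG1), the ATPase needed for heart development, had -0.09, *Smarcb1* 0.00, *Smarca2* (BRM) 0.11 and *Arid1a* 0.17, and *Chd7* had 0.05. The *Arid1a* value was 0.08 without WT replicate 2 and 0.26 without WT replicate 4. *Brd2*, the acetyl-lysine reader of the list, read 3.98, 4.16, 4.05 and 4.04 on the WT arrays and 4.19, 4.22, 4.23 and 4.12 on those labelled SIRT1 KO. Only WT replicate 2 reached into the other group, and the log2 fold change was 0.13 (SE 0.07, limma adjusted p = 0.318), which became 0.00 with median scaling and -0.09 with no scaling.

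Probes of some genes disagreed by more than the genotypes did. Of the 21 genes with several tested probes, 13 had all probes on the same side of 0, 11 of them higher and 2, *Dnmt3a* and *Suz12*, lower, and 8 had probes on both sides. The largest spreads were those of *Kat2b* (0.53 on the log2 scale), *Ncoa3* (0.46), *Chd4* (0.42) and *Tet3* (0.35). The median spread was 0.10, a little below the median absolute log2 fold change of the 48 genes, 0.12. For *Kdm4a*, *Kdm2b* and *Ring1* the probes lay within 0.04 of each other.

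**Figure D4:**
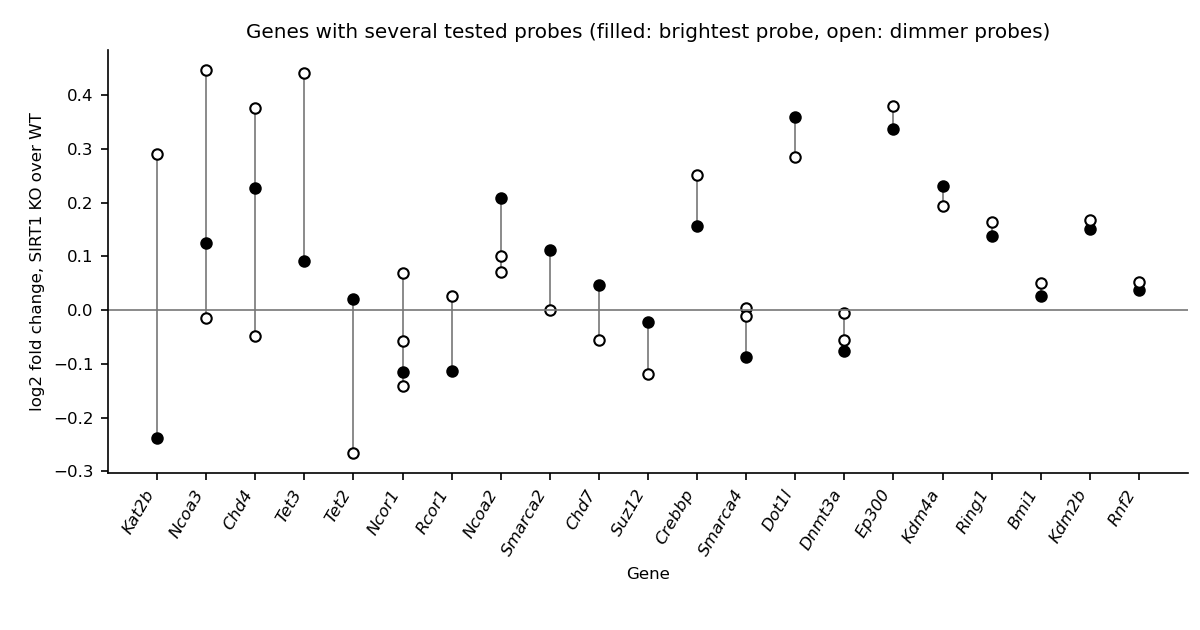
Log2 fold change (y axis, SIRT1 KO over WT) of every tested probe of the 21 chromatin genes with several probes (x axis, ordered by the spread between probes), with the brightest probe filled and dimmer probes open. *Kat2b*, at -0.24 and 0.29, lies at one end and *Rnf2*, at 0.04 and 0.05, at the other.

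The share of probes past the threshold fell with brightness over the array. When the tested probes were split by signal into 3 parts of equal size, 8.82% of all probes in the dimmest part passed the threshold and their median log2 fold change was 0.10, while the 17 chromatin probes there had a median of 0.07. In the middle part the 31 chromatin probes had a median of 0.09 and 4.06% of all probes passed. In the brightest part 1.84% of all probes passed with a median of -0.03, and the 28 chromatin probes had a median of 0.04. None of the chromatin probes passed in any of them.

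A wider list of 202 other chromatin genes, with 190 tested, gave a like picture. By limma 3 passed the threshold (1.58%, against 4.62% of named genes), all higher in the hearts labelled SIRT1 KO, and 26 (13.7%, against 20.4%) had an unadjusted p under 0.05, with 116 genes higher, 74 lower and a median of 0.04. *Smyd1*, a methyltransferase of heart and skeletal muscle that is needed for myofibrils to form, read 3.04, 2.76, 2.97 and 2.79 on the WT arrays and 3.30, 3.21, 3.48 and 3.23 on those labelled SIRT1 KO. It rose by 0.41 on the log2 scale (SE 0.10, limma adjusted p = 0.0432) with no overlap. *Dpf1*, a subunit of neuronal BAF complexes, rose by 0.51 (limma adjusted p = 0.0154), from between -3.96 and -3.64 to between -3.38 and -3.18. *Chd5*, a remodeler best known from neurons, stood above background in all 4 hearts labelled SIRT1 KO but in only 2 WT hearts, and passed as higher (limma adjusted p = 0.0465), with a size that is uncertain because its WT signal is dim. It met the filter through the arrays in which it is high, so that it lends no support to the count, which is 2 without it. The count fell to 1 gene in 4 of the 8 fits without 1 array, those without SIRT1 KO replicate 1 and without WT replicates 2, 3 and 4. *Dpf1* passed in all 8 of these fits, with log2 fold changes from 0.45 to 0.55, but not with no scaling (0.29, limma adjusted p = 0.0595). *Smyd1* passed only in the fit without WT replicate 1 and *Chd5* only in those without SIRT1 KO replicates 2 and 4. *Smyd1* did not pass with median scaling (0.28, limma adjusted p = 0.123) or no scaling (0.19, limma adjusted p = 0.170), nor with the Y-linked covariate, no filter or the methods' analysis of variance (adjusted p from 0.0703 to 0.0874). *Chd5* did not pass with a replicate block, cyclic loess, quantile normalization, no filter or the methods' analysis of variance (adjusted p from 0.0661 to 0.140). Of the 34 further acetylation genes 25 were higher, as were 14 of 23 Polycomb genes, 9 of 17 demethylases, 29 of 44 remodeling genes, 21 of 40 histone methylation genes, 7 of 10 DNA methylation genes and 11 of 22 corepressors, and with no scaling 1 of 34, 4 of 23, 1 of 17, 5 of 44, 6 of 40, 1 of 10 and 3 of 22 of them were.

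**Figure D5:**
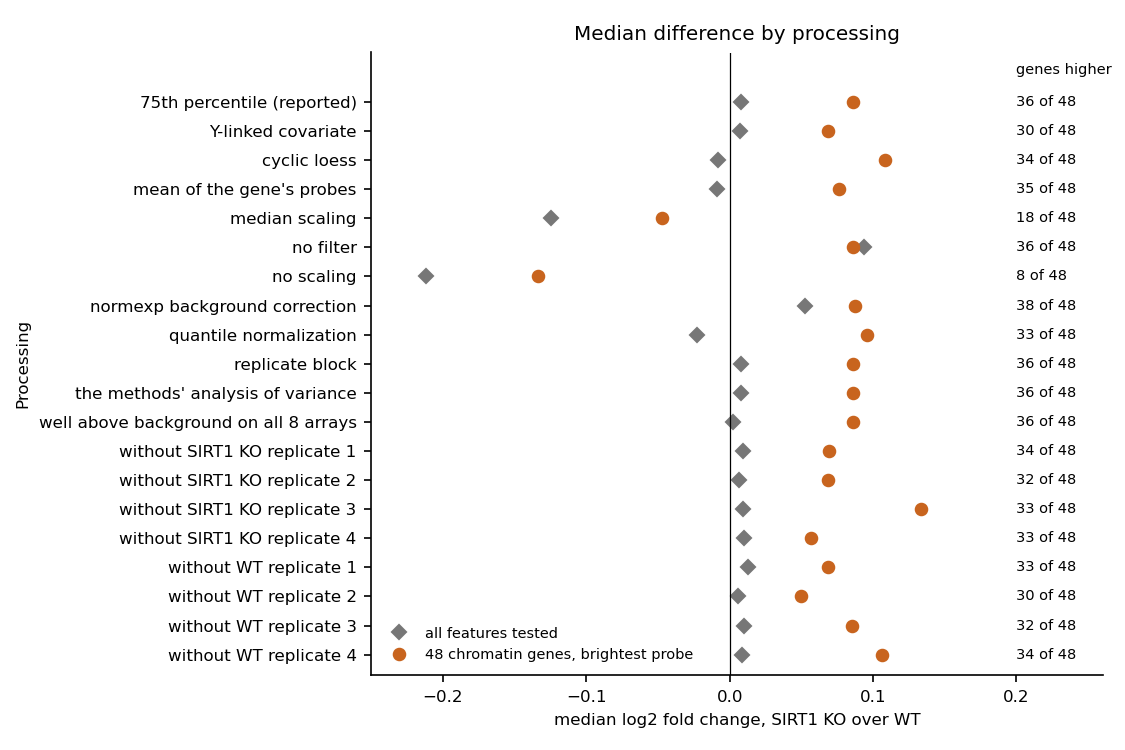
Median log2 fold change (x axis, SIRT1 KO over WT) of the 48 chromatin genes on their brightest probe (orange circles) and of all features tested (gray diamonds) under each processing (y axis), with the number of the 48 genes that were higher at the right. Both medians fall below 0 with median scaling and with no scaling, and without the filter on dim probes the median of all probes lies at 0.09, as does that of the chromatin genes.

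The medians of the chromatin genes and of all probes were 0.10 and -0.02 with quantile normalization and 0.11 and -0.01 with cyclic loess. With dim probes included they were both 0.09, where only the median of all probes can move, since every chromatin gene keeps its brightest probe. On the brightest probe, 17 of the 48 genes kept their sign under the 14 alternatives that keep this probe and can move its fold change, 8 as higher (*Cbx7*, *Chd4*, *Dot1l*, *Ep300*, *Kat6b*, *Kdm4a*, *Kdm6b* and *Sin3a*) and 9 as lower (*Dnmt3a*, *Ezh2*, *Kat2b*, *Ncor1*, *Rcor1*, *Setdb1*, *Smarca4*, *Smarcd3* and *Suv39h1*). The mean of a gene's probes was not among these alternatives. Of the genes named, *Chd4*, *Kat2b*, *Ncor1*, *Rcor1* and *Smarca4* had tested probes on both sides of 0, *Kat2b* at -0.24 and 0.29. Median scaling and no scaling lower every gene alike, so that the genes that were lower could not change sign under them.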

How the data were processed

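One-color Agilent mouse arrays were used to profile E18.5 hearts, 4 WT and 4 SIRT1 KO. The authors deposited scanner output in which the intensity of each spot had been background-subtracted and error-modelled by Agilent's Feature Extraction with one-color defaults, without scaling between arrays. The file headers name version 12.0.0.7. The deposited table of processed values equals this signal and was not used.

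Control and outlier spots were left out, log2 of the processed signal minus the array's 75th percentile was taken, and spots of a probe were averaged. Accessions were matched to RefSeq gene names of GRCm38.p6, which named 28223 probes, and that assembly was used otherwise only for promoter windows. Probes that at least 4 of 8 arrays showed well above background were fitted with limma 3.58.1 in R 4.3.3 (lmFit, eBayes, genotype only), with Benjamini-Hochberg adjustment at 0.05 over 25624 probes. An exact two-sided permutation test over the arrays was run for single values. Nothing in the labels says whether the hearts of a group came from separate litters. Tables and plots were made with Python 3.11.15, numpy 2.4.6, pandas 2.3.3 and matplotlib 3.10.9. The fit was tested on simulated data. The number of arrays, 4 per genotype, limits the precision.

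The members and lists were chosen with earlier results of these data known. Values on every array are given for *Kdm6a*, *Smarcd3* and the gene of each role with the smallest unadjusted p on its brightest probe. *Ep300*, *Kat2b*, *Ring1*, *Kdm2b*, *Tet3* and the dimmer *Chd4* probe were added after their values were seen, as was *Kdm5c*. Alternatives covered background correction, scaling, filter, test, Y-linked signal as a covariate, a replicate block, the choice of probe and leaving out each array. Marker lists covered cardiomyocyte, proliferation, erythroid, macrophage and leukocyte, endothelial, fibroblast and epicardial, lung, thymus, liver and sex-linked genes.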

Additional observations from a re-analysis of the deposited data

Results flagged for a closer look

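In 42 groups of 4 arrays, those of the 21 member probes whose values are given, 1 array stood apart from the other 3 by Dixon's criterion in 3 groups, all WT. Chance gives such a gap in about 1 of 20 groups. *Ezh2* was 0.88 (log2 signal) in WT replicate 1, against 1.15 to 1.20 in the other WT hearts. *Cbx7* was -4.78 in WT replicate 4, against -3.99 to -3.87. *Smarcd3* was 2.83 in WT replicate 4, against values that all round to 2.76.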

How the results depend on the processing

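The number of member probes past the threshold was 0 in the reported fit, 7 with no scaling (all lower, of *Ezh2*, *Kat2b*, *Kat6a*, *Ncor1* and *Suv39h1*), 2 with the normexp background correction (*Chd4* and *Kat6b*), 1 with a replicate block (*Chd4*) and between 0 and 3 with 1 array left out (*Chd4*, *Dot1l* and *Ep300* without SIRT1 KO replicate 3, *Tet3* without SIRT1 KO replicate 4). On the brightest probe 5, 1, 0 and between 0 and 2 genes passed in these fits. The counts of member probes are out of 76. Of all probes tested, 24.8% passed with no scaling, 10.04% with normexp and 4.63% with the replicate block, against 4.91% in the reported fit. Without SIRT1 KO replicate 3 it was 7.13% of all probes, and without SIRT1 KO replicate 4 it was 4.34%. The median of the 48 genes was -0.047 with median scaling and -0.13 with no scaling, against 0.09, and between 0.05 and 0.13 with 1 array left out. Of the 190 genes tested of the wider list, 6 passed with median scaling, 29 with no scaling, 12 with normexp, 1 with no filter, 1 by the methods' analysis of variance and between 1 and 4 with 1 array left out, against 3. These counts rose and fell with the share of all probes that passed. That share was 7.45% with median scaling, 24.8% with no scaling and 10.04% with normexp. With no filter it was 2.41%, and 2.15% by the analysis of variance. Over all probes, 1257 passed, and 769 with the Y-linked covariate, 1909 with median scaling, 6351 with no scaling, 2572 with normexp, 550 by the analysis of variance, 1187 with the replicate block, and with 1 array left out between 660, when WT replicate 3 was dropped, and 1827, when SIRT1 KO replicate 3 was. It was 732 and 728 without SIRT1 KO replicates 1 and 2 and 663 without WT replicate 2. The share of these calls that was higher was 81.2%, against 70.4% with cyclic loess, 63.9% with quantile normalization, 35.6% with median scaling and 10.1% with no scaling.

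With no scaling the log2 fold change reversed to -0.012 for *Ncoa2*, -0.055 for the dimmer *Ring1* probe, -0.075 for *Ehmt2*, -0.069 for *Kdm2b*, -0.047 for *Kdm6a*, -0.040 for *Tet1* and -0.089 for *Brd2*, and with median scaling to -0.0020 for *Brd2*. Of the other values of single probes under the alternatives, 361 kept direction and side of the threshold and 9 passed it. Under 4 of the alternatives a fold change cannot move, so direction was kept there by construction. A value that shrank toward 0 without reversing also counts as kept. The cause of these shifts was not tested beyond the median of all probes, which is -0.12 with median scaling and -0.21 with no scaling. Same-numbered arrays of both genotypes had correlated deviations of 0.20, 0.21, 0.06 and 0.14, each array's highest being with its own number, which is a hint from the data and not a pairing in the labels. With the replicate block 2 genes of the wider list passed, *Chd5* being lost. Signal near background limits *Cbx7*, the dimmer *Tet3* probe and *Chd5*.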
